A study of Komagataella phaffii with 9 samples.

Results

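The genes described here are the 64 genes of *Komagataella phaffii* (syn. *Pichia pastoris*), of 5344 sequences in the quantification tables, whose transcript level was lower in the strain lacking *CRA1* than in the control strain while it stayed within set limits in the strain overexpressing *CRA1*. They were chosen on CPM, the estimated count of a gene divided by the library total and scaled to 1e6. A sequence was counted if its mean estimated count reached 20 in at least 1 strain, which 2216 sequences did. All 3 Δcra1 libraries had to lie below all 3 control libraries, which left 451 sequences (20.4% of those counted). A ratio of mean Δcra1 to mean control CPM of at most 0.5 left 155 (6.99%). Of these, 7 were on a fixed list of excluded sequences, named by locus tag and including runs of neighbouring tags on chromosomes 1 and 2. The ratio of mean overexpression to mean control CPM then had to lie between 0.67 and 1.5, which removed 44 further sequences at or above the upper limit and 40 at or below the lower one. The values of all 9 libraries thus chose the genes, so that their levels below are a description and no test of the strain differences.

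Cra1 is a transcription factor with sequence similarity to the *S. cerevisiae* regulator Gal4, and the study asked how it shapes glucose metabolism. The groups compared, of 3 libraries each, were the Δcra1 strain, from which the gene was deleted with a split marker cassette, the *CRA1* overexpression strain, built with the Golden*Pi*CS cloning system, and the control strain, which carries the native gene. All were derived from CBS7435, and all carry eGFP behind the promoter of the glyceraldehyde-3-phosphate dehydrogenase gene as a reporter. Each strain was represented by 1 transformant, grown in 3 independent shake flasks on M2 medium with 5 g glucose per litre after a preculture in YP medium with Zeocin, and poly(A)-enriched RNA was taken in exponential growth, so the spread between libraries is that between flasks of a single clone.

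*CRA1* itself had 0 counts in each Δcra1 library (a count of 0 allows up to 13.4 to 15.5 CPM, counting error alone considered), 810, 95 and 316 counts in the overexpression libraries and 11 in each control library, and the Kanamycin marker had 1751, 1526 and 1679 counts with the deletion, 19, 10 and 16 with overexpression and 0 in the control strain (up to 27.6 to 28.2 CPM). The tables held 193565 to 223824 estimated counts per Δcra1 library, 114609 to 213700 per overexpression library and 106345 to 108537 per control library, so that 1 count was worth 4.47 to 5.17 CPM in the Δcra1 strain and 9.21 to 9.40 CPM in the control strain. Over the 2216 counted sequences the median log2 ratio of Δcra1 to control was 0.14 with CPM and 0.02 after TMM scaling, a correction of library size for composition, so the genes stood slightly further below the typical gene than their CPM ratios give. The fitted log2 fold changes (± SE) given below were made with TMM scaling.

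Of the 64 genes, 42 have a gene name in the annotation table of the study, mostly from similarity to *S. cerevisiae*, 19 are described there without a name and 3 are not in it. The functional groups below are lists within that table, which the study limited to 714 genes that passed its cutoffs in these libraries, so the counts of a list are not independent of the data. Among the genes are enzymes of nucleotide salvage, of fatty acid and sphingolipid metabolism and of amino acid synthesis, proteins of the vacuole, which stores phosphate, calcium and amino acids, parts of the secretory route through endoplasmic reticulum and Golgi, proteins of the cell wall, and factors that act on DNA, chromatin and RNA. In yeasts, peroxisomal β-oxidation and many stress and storage functions are known to change with the carbon source and growth rate, and genes of these kinds are found side by side here with genes of general upkeep such as splicing and vesicle traffic.

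Counts that fell on the 64 genes made up 1.37, 1.30 and 1.23% of the Δcra1 libraries, against 2.71, 4.15 and 3.82% of those with overexpression and 3.58, 3.78 and 3.84% of the control libraries. The means were 1.30 ± 0.07% in the Δcra1 strain, 3.56 ± 0.75% in the overexpression strain and 3.74 ± 0.14% in the control strain (SD, n = 3 each). The Δcra1 libraries lay apart from all others, which the choice of genes requires, while overexpression replicate 1 stood below the other 5 libraries of the overexpression and control strains.

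**Figure D1:**
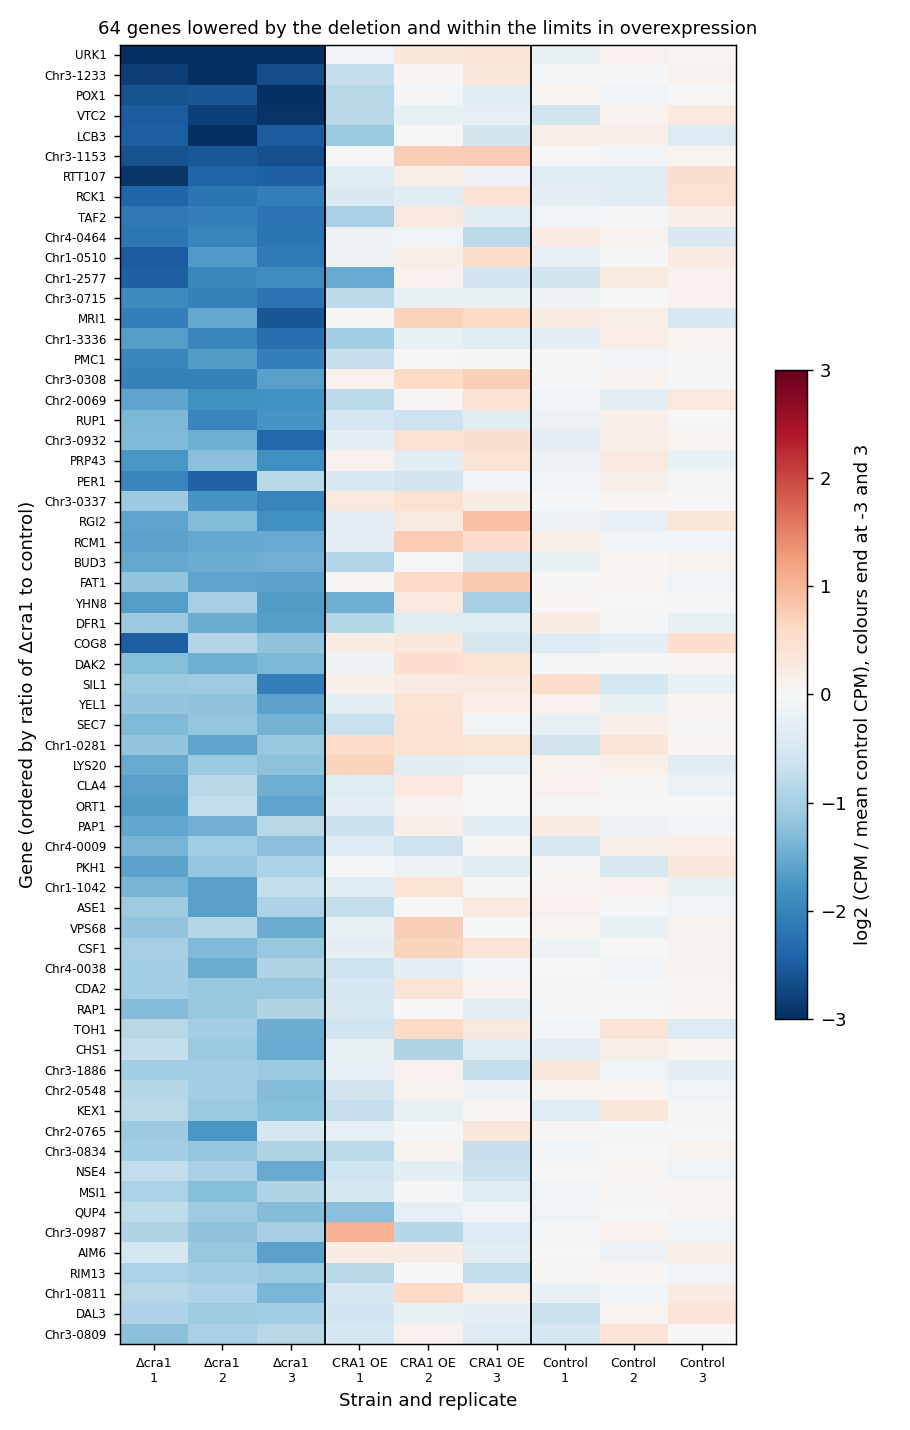
Level of each of the 64 genes (down the page, ordered by the ratio of Δcra1 to control) in the 9 libraries (across), as the log2 ratio of its CPM to its mean control CPM; blue is lower and red higher, and colours end at -3 and 3. The Δcra1 columns are blue throughout, and in 49 genes overexpression replicate 1 is the lowest of the overexpression libraries.

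Ratios of mean Δcra1 to mean control CPM ran from 0.0468 to 0.497 with a median of 0.397. Of the 64 genes, 13 lay under 0.25, 19 between 0.25 and 0.4, and 32 between 0.4 and 0.5. In 28 genes the highest Δcra1 library was at most 0.5 times the lowest control library, and the gap was narrowest in *DAL3*, at 0.823 times. Ratios of mean overexpression to mean control CPM ran from 0.698 to 1.46 with a median of 0.956, with 26 genes above 1 and 38 below. The overexpression libraries overlapped the control libraries in 56 genes (87.5%, against 63.3% of all counted sequences), lay below all of them in 5 (*RUP1*, *DFR1*, *NSE4*, PP7435_Chr3-0715 and PP7435_Chr4-0038) and above all of them in 3 (PP7435_Chr3-0308, PP7435_Chr3-0337 and PP7435_Chr1-0281). In 61 genes every overexpression library was above every Δcra1 library, and in *YHN8*, *CHS1* and *QUP4* these groups overlapped. The limits on the ratios bear on all of these counts. For the 28 and the 61 genes no share over all counted sequences was taken, and nothing is read from them.

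**Figure D2:**
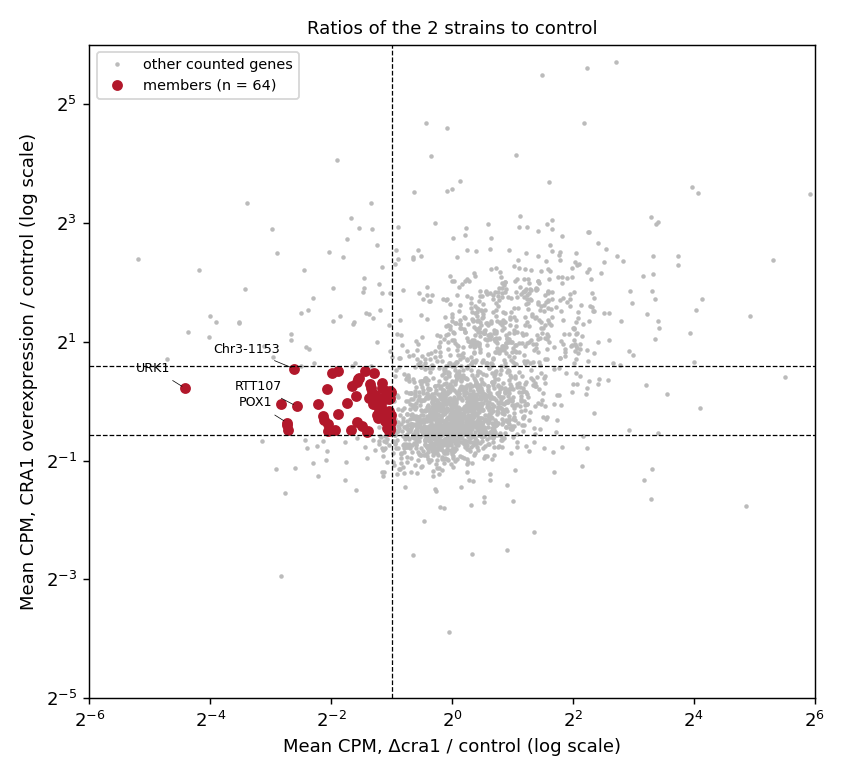
Ratio of mean CPM of the Δcra1 strain to the control strain (x axis, log scale) against that of the overexpression strain to the control strain (y axis, log scale); red points are the 64 genes, grey points 2147 other counted sequences, with 5 outside the axes, and dashed lines the limits of 0.5, 0.67 and 1.5. *URK1* stands alone at the left, at 0.0468, and 32 of the genes lie between 0.4 and 0.5.

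Calls were made with edgeR's quasi-likelihood test, with p-values adjusted over all genes of a comparison (Benjamini-Hochberg), and required an adjusted p under 0.05 together with an absolute log2 fold change of at least 1. All 64 genes were called lower in the Δcra1 strain than in the control strain, where 8.4% of the 2392 genes tested were, and their median log2 fold change was -1.43, against 0.01 over all genes tested. Without Δcra1 replicate 3 the number called was 56, the lowest of all sets with a library left out. None was called between the overexpression and control strains, where 7.96% of 1986 genes were called; 9 had an unadjusted p under 0.05, DESeq2 called 0 as well, and the median log2 fold change was 0.10, against 0.03 over all genes tested. Of these 9, PP7435_Chr3-1153 (log2 fold change 0.71 ± 0.15, adjusted p = 0.026) and *FAT1* (0.67 ± 0.16, adjusted p = 0.039) also had an adjusted p under 0.05 and lay higher in the overexpression strain by less than the required change. Between the Δcra1 and overexpression strains 46 of the 64 were called lower, where 9.22% of 3071 genes were, with a median of -1.45 against -0.08. The choice of genes used these contrasts, and nothing is read from the counts. Over all genes tested, 315 of 2392 were called higher in the Δcra1 strain than in the control strain. For the overexpression strain against the control strain, 142 of 1986 were called higher.

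The gene furthest below control was *URK1*, the uridine and cytidine kinase that returns pyrimidine nucleosides to the nucleotide pool. It had 57.5, 46.5 and 67.0 CPM in the Δcra1 libraries, against 1137, 1518 and 1596 CPM in those of the overexpression strain and 1060.1, 1327 and 1269 CPM in those of the control strain. Its mean was 21.4-fold lower with the deletion than in the control strain, a fitted log2 fold change of -4.49 ± 0.21, and the highest Δcra1 library reached 0.0632 times the lowest control library. The overexpression and control libraries overlapped.

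Fatty acid and sphingolipid metabolism was represented by 4 genes. The list of lipid metabolism holds 21 genes, and 2 of them, *POX1* and *FAT1*, are among those chosen here. In the Δcra1 strain 4 of the 18 tested genes of this list were called lower and 9 higher than in the control strain. The median log2 fold change of the list was 0.99, so the decrease of *POX1* and *FAT1* was not shared by the list as a whole. *POX1* encodes the acyl-CoA oxidase that starts peroxisomal β-oxidation. Its level was 129, 134 and 93.8 CPM in the Δcra1 libraries, against 445, 777 and 626 CPM in those of the overexpression strain and 839, 737 and 799 CPM in those of the control strain. That is 6.64-fold lower with the deletion (-2.83 ± 0.20 on the log2 scale), with overexpression replicates 1 and 3 below and replicate 2 within the control range. *FAT1*, a very long chain fatty acyl-CoA synthetase and fatty acid transporter, had 259, 196 and 192 CPM with the deletion, 604, 873 and 1014 CPM with overexpression and 599, 608 and 545 CPM in the control strain. It was 2.71-fold lower in the Δcra1 strain (-1.53 ± 0.20 on the log2 scale) and had a ratio of 1.42 in the overexpression strain, close to the upper limit. Without overexpression replicate 1 that ratio was 1.61.

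*LCB3*, the phosphatase that removes phosphate from long-chain base phosphates of the sphingolipid pathway, had 91.0, 51.7 and 89.4 CPM in the Δcra1 libraries, against 234, 506 and 345.2 CPM in those of the overexpression strain and 572, 562 and 386 CPM in those of the control strain. The mean was 6.55-fold lower with the deletion (-2.78 ± 0.27 on the log2 scale), and the overexpression libraries covered a wide range that reached into that of the control strain. *PKH1*, a protein kinase of sphingolipid-mediated signalling that also serves cell wall integrity, was a weakly counted gene with 76.7, 103 and 121 CPM with the deletion, 225, 209 and 187 CPM with overexpression and 239.7, 166 and 292 CPM in the control strain. Its decrease with the deletion was 2.32-fold (-1.30 ± 0.31 on the log2 scale). Of the 5 genes of the annotation table described with sphingolipids, all tested, 2 were called lower in the Δcra1 strain, and these are *LCB3* and *PKH1*; another 2 were called higher.

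**Figure D3:**
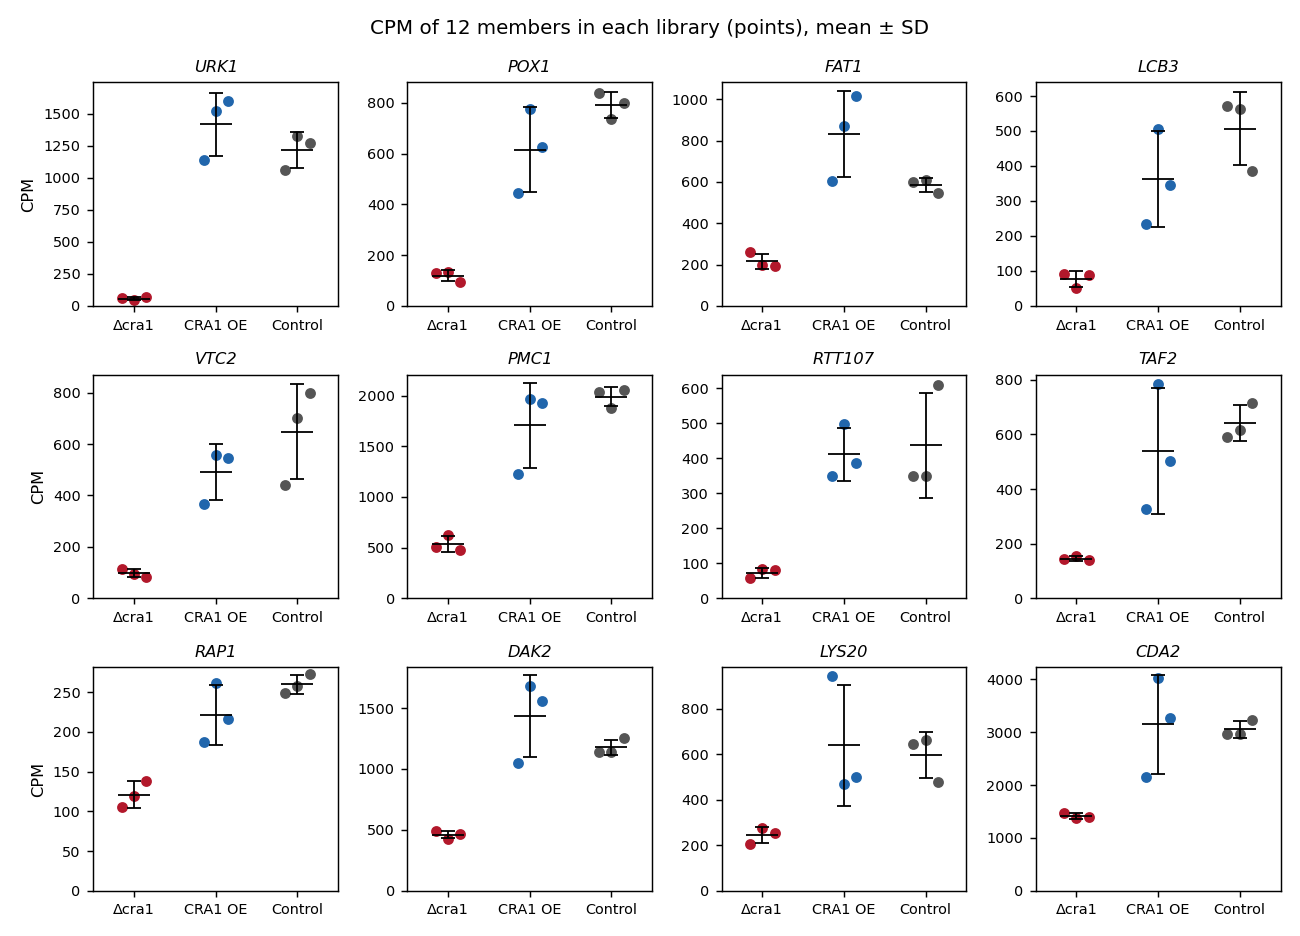
CPM of 12 of the genes in each library (points; Δcra1, *CRA1* overexpression and control from left to right), with the mean (horizontal line) and SD (bars) of the 3 libraries of a strain; each panel has its own axis from 0. The Δcra1 points lie below every control point in each panel, and *LYS20* is the panel in which overexpression replicate 1 is the highest of its strain.

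The annotation table lists 24 genes under the vacuole, and 4 of them are among the 64; of the 22 tested, 9 were called lower in the Δcra1 strain and 9 higher. *VTC2* encodes a subunit of the vacuolar transporter chaperone complex, which makes and stores polyphosphate. It had 115, 93.0 and 84.9 CPM in the Δcra1 libraries, against 365, 558 and 546 CPM in those of the overexpression strain and 442, 700.2 and 799 CPM in those of the control strain. The mean was 6.63-fold lower with the deletion, -2.82 ± 0.25 on the log2 scale. Its partner subunit *VTC1* was also called lower in the Δcra1 strain, with a log2 fold change of -2.40, and is not among the 64 because its overexpression to control ratio was 0.407. *PMC1*, the vacuolar calcium ATPase, was the most highly counted of the 4 with 503, 625 and 478 CPM with the deletion, 1226, 1963 and 1927 CPM with overexpression and 2037, 1879.5 and 2049.9 CPM in the control strain. This was 3.71-fold lower in the Δcra1 strain (-1.99 ± 0.12 on the log2 scale), and overexpression replicate 1 lay below the control range that replicates 2 and 3 reached.

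*VPS68*, a vacuolar membrane protein of protein sorting, had 115, 145 and 93.8 CPM in the Δcra1 libraries, against 229, 436 and 259 CPM in those of the overexpression strain and 277, 230.3 and 282 CPM in those of the control strain. The decrease was 2.23-fold (-1.26 ± 0.28 on the log2 scale), and overexpression replicate 2 was the highest of all libraries. *CLA4*, a Cdc42-activated kinase with roles in septin assembly, cytokinesis and vacuole inheritance, had 119.8, 207 and 134 CPM with the deletion, 290.1, 454 and 367 CPM with overexpression and 406, 378 and 329 CPM in the control strain. Its mean was 2.42-fold lower with the deletion, -1.37 ± 0.25 on the log2 scale, while the overexpression libraries overlapped those of the control strain. PP7435_Chr2-0548, similar to a putative transporter of the sugar porter family found at the vacuolar membrane of *S. cerevisiae*, was more highly counted, with 1342, 1209 and 987 CPM in the Δcra1 libraries, against 1675, 2609 and 2200.4 CPM in those of the overexpression strain and 2517, 2561 and 2229 CPM in those of the control strain. It was 2.07-fold lower in the Δcra1 strain (-1.14 ± 0.12 on the log2 scale), and -0.99 without Δcra1 replicate 3, short of the change required for a call. *QUP4*, a putative quinate permease, had a ratio of 0.491.

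Under secretion, 3 of the 46 listed genes are among the 64. *SEC7* encodes an exchange factor for ADP ribosylation factors in Golgi transport. It had 278, 310.0 and 259 CPM in the Δcra1 libraries, against 439.9, 942 and 633 CPM in those of the overexpression strain and 599, 774 and 715 CPM in those of the control strain. Its decrease in the Δcra1 strain was 2.46-fold (-1.40 ± 0.18 on the log2 scale), and overexpression replicates 1 and 2 differed by 2.14 times with the control libraries between them. *SIL1*, the nucleotide exchange factor of the endoplasmic reticulum chaperone Kar2, had 86.2, 87.8 and 44.7 CPM with the deletion, 206, 218 and 223 CPM with overexpression and 267, 129 and 159.9 CPM in the control strain. The control libraries of *SIL1* differed by 2.07 times among themselves, the widest control range of the 64, and the decrease was 2.54-fold (-1.44 ± 0.36 on the log2 scale).

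*COG8*, a component of the tethering complex at the Golgi, had 24.0, 72.3 and 58.1 CPM in the Δcra1 libraries, against 154, 166 and 93.5 CPM in those of the overexpression strain and 101, 111 and 188 CPM in those of the control strain. The Δcra1 values rest on 5, 14 and 13 counts, and the decrease was 2.59-fold with a wide error (-1.46 ± 0.41 on the log2 scale). *PER1*, which remodels GPI anchors in the endoplasmic reticulum, had the least even Δcra1 libraries of the 64, at 9, 6 and 21 counts. *YEL1*, an exchange factor for Arf3, and *KEX1*, the carboxypeptidase of killer toxin and α-factor processing, had ratios of 0.401 and 0.484. Secretion genes as a whole were called in both directions in the Δcra1 strain, 7 lower and 17 higher of the 38 tested.

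Cell wall genes were again 4 of a list of 26, of whose 23 tested genes 7 were called lower and 11 higher. *CDA2*, a chitin deacetylase that makes the chitosan of the ascospore wall, was the most highly counted of the 64. It had 1476, 1379 and 1394 CPM in the Δcra1 libraries, against 2148, 4022 and 3265 CPM in those of the overexpression strain and 2959, 2967 and 3235 CPM in those of the control strain. The mean was 2.16-fold lower with the deletion (-1.20 ± 0.10 on the log2 scale), and the overexpression libraries lay on either side of the control libraries. In counts as deposited *CDA2* stood at 308, 267 and 312 in the Δcra1 strain and 321, 322 and 344 in the control strain, and its decrease is one of CPM, set against the larger totals of the Δcra1 libraries. Other genes near the limit of 0.5 share this, such as PP7435_Chr2-0548, with 280, 234 and 221 counts against 273, 278 and 237. *CHS1*, the chitin synthase that repairs the septum, had 110.2, 82.7 and 62.5 CPM with the deletion, 154, 96.0 and 144 CPM with overexpression and 147, 203 and 188 CPM in the control strain. It was 2.11-fold lower in the Δcra1 strain (-1.17 ± 0.33 on the log2 scale), with overexpression libraries that overlapped both other strains.

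*TOH1*, a GPI-anchored cell wall protein of unknown function, had 153, 134 and 98.3 CPM in the Δcra1 libraries, against 182, 419 and 331 CPM in those of the overexpression strain and 258, 359 and 207 CPM in those of the control strain. The ratio of Δcra1 to control was 0.468 (-1.19 ± 0.28 on the log2 scale), and the overexpression libraries differed by 2.29 times. The remaining cell wall gene is *PKH1*. Of the 4 genes described with chitin, 3 were called lower and 1, the chitinase gene *CTS1*, was called higher in the Δcra1 strain with a log2 fold change of 1.03.

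Factors that act on DNA and chromatin included both genes that the annotation table describes with the SMC5-SMC6 complex, which handles joined DNA structures between sister chromatids. *RTT107*, a protein with BRCT domains that brings this complex to double-strand breaks, had 57.5, 82.7 and 80.4 CPM in the Δcra1 libraries, against 351, 497 and 388 CPM in those of the overexpression strain and 350.3, 350.1 and 611 CPM in those of the control strain. It was 5.95-fold lower with the deletion (-2.65 ± 0.29 on the log2 scale), although control replicate 3 stood well above the other control libraries. *NSE4*, a component of the complex itself, had 115, 98.2 and 67.0 CPM with the deletion, 126, 157 and 122 CPM with overexpression and 194, 203 and 179 CPM in the control strain. Its decrease was 2.05-fold (-1.13 ± 0.32 on the log2 scale), and its overexpression libraries also lay below all control libraries, at a ratio of 0.706. *MSI1*, a subunit of chromatin assembly factor I, had 216, 170.5 and 223 CPM in the Δcra1 libraries, against 285, 401 and 331 CPM in those of the overexpression strain and 387, 424 and 433 CPM in those of the control strain. This gene was 2.04-fold lower in the Δcra1 strain, -1.12 ± 0.22 on the log2 scale. Of the 11 genes described with DNA repair or damage, 9 were tested, with 3 called lower and 4 higher.

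The list of transcription factors holds 50 genes, of which 36 were tested, with 9 called lower and 17 higher in the Δcra1 strain, and 4 of its genes are among the 64. *TAF2* encodes a subunit of TFIID, which starts RNA polymerase II transcription. It had 144, 155 and 139 CPM in the Δcra1 libraries, against 328, 785 and 503 CPM in those of the overexpression strain and 590.0, 617 and 715 CPM in those of the control strain. Its Δcra1 libraries were closely grouped and 4.40-fold lower than control (-2.23 ± 0.21 on the log2 scale), while overexpression replicates 1 and 2 differed by 2.4 times. *RAP1*, a DNA-binding regulator that in *S. cerevisiae* acts on ribosomal protein genes, silencing and telomeres, had 105, 119 and 139 CPM with the deletion, 187, 262 and 216 CPM with overexpression and 249, 258 and 273 CPM in the control strain. The decrease was 2.15-fold (-1.19 ± 0.27 on the log2 scale).

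PP7435_Chr3-0715, a conserved protein with a GAL4 domain and a fungal transcription factor region, had 579.8, 542 and 469 CPM in the Δcra1 libraries, against 1268, 1876 and 1891 CPM in those of the overexpression strain and 1973, 2193 and 2417 CPM in those of the control strain. It was 4.14-fold lower with the deletion (-2.15 ± 0.12 on the log2 scale), and its overexpression libraries lay below those of the control strain, at a mean ratio of 0.765. PP7435_Chr1-0281, similar to a putative zinc cluster regulator of *S. cerevisiae*, had the lowest control TPM of the 64, and had 47.9, 36.2 and 49.1 CPM with the deletion, 159, 148 and 144 CPM with overexpression and 73.7, 138 and 113 CPM in the control strain. The Δcra1 mean was 2.44-fold lower than control (-1.36 ± 0.40 on the log2 scale), and its overexpression libraries lay above all control libraries at a ratio of 1.39. This gene had 34, 17 and 20 counts with overexpression and 8, 15 and 12 in the control strain. Its mean count reached the minimum of 20 in the overexpression strain alone, so the count minimum favoured a high level there. Of 12 genes described with a zinc cluster, zinc finger or GAL4 domain, 8 were tested in the Δcra1 strain, and 4 were called lower and 2 higher.

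RNA factors were represented by *PRP43*, a DEAH-box helicase of spliceosome release and ribosome synthesis, *RCM1*, a methyltransferase of ribosomal RNA, and *PAP1*, the poly(A) polymerase. Their ratios of Δcra1 to control were 0.331, 0.342 and 0.423. PP7435_Chr1-0510, similar to a phosphatase with a possible role in tRNA splicing, was lower still at 0.239. In the overexpression strain the ratios of these 4 genes ran from 0.847 for *PAP1* to 1.31 for *RCM1*.

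Amino acid metabolism contributed 3 of 43 listed genes, of which 33 were tested, with 5 called lower and 9 higher. *MRI1*, the isomerase of the methionine salvage pathway, had 57.5, 82.7 and 40.2 CPM in the Δcra1 libraries, against 243, 384 and 359.5 CPM in those of the overexpression strain and 277, 267 and 169 CPM in those of the control strain. The decrease was 3.95-fold (-2.08 ± 0.34 on the log2 scale) on 12, 16 and 9 counts, and overexpression replicates 2 and 3 were the highest of all libraries. *LYS20*, a homocitrate synthase of the first step of lysine synthesis, had 208, 274 and 252 CPM with the deletion, 944, 468 and 502 CPM with overexpression and 644, 663 and 478 CPM in the control strain. It was 2.43-fold lower with the deletion (-1.39 ± 0.20 on the log2 scale). Overexpression replicate 1 carried the overexpression mean, and the ratio to control of 1.07 became 0.815 without it. *K. phaffii* has a paralog, *LYS21*, with which reads may be shared, so its value is uncertain to that extent.

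*ORT1*, the mitochondrial ornithine carrier of arginine synthesis, had 125, 238 and 134 CPM in the Δcra1 libraries, against 332, 428 and 403 CPM in those of the overexpression strain and 406, 396 and 395 CPM in those of the control strain. The control libraries were the most even of the 64, and the decrease was 2.41-fold (-1.38 ± 0.25 on the log2 scale). *DAL3*, the ureidoglycolate hydrolase of allantoin breakdown, is the gene nearest to the limit among those with a name, with 91.0, 82.7 and 84.9 CPM with the deletion, 117, 148 and 144 CPM with overexpression and 111, 184 and 226 CPM in the control strain. Its ratio was 0.497.

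*DAK2*, a dihydroxyacetone kinase that detoxifies dihydroxyacetone, is the 1 of these genes listed under methanol metabolism. It had 489, 429 and 465 CPM in the Δcra1 libraries, against 1053, 1684 and 1560.4 CPM in those of the overexpression strain and 1143, 1142 and 1251 CPM in those of the control strain. Its mean was 2.56-fold lower with the deletion (-1.45 ± 0.13 on the log2 scale), and overexpression replicates 2 and 3 lay above the control libraries. *DFR1*, the dihydrofolate reductase, had a ratio of 0.381 in the Δcra1 strain and 0.707 in the overexpression strain, where all 3 libraries also lay below control. Among genes with a part in respiratory growth, *RGI2* had a ratio to control of 0.34 with the deletion and 1.29 with overexpression, and *AIM6*, of unknown function, 0.493 with the deletion and 1.04 with overexpression. *CSF1*, needed for fermentation at low temperature and the longest of the 64 at 9189 coding bases, had a ratio of 0.449 with the deletion and 1.23 with overexpression. None of the 28 genes listed under carbon metabolism and none of the 4 described with thiamine is among the 64; of the tested carbon metabolism genes, 11 of 25 were called lower with the deletion and 14 of 23 were called higher with overexpression, where none was called lower.

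*RCK1*, a protein kinase of the oxidative stress response, had 71.9, 82.7 and 89.4 CPM in the Δcra1 libraries, against 281, 305 and 511 CPM in those of the overexpression strain and 313, 304 and 517 CPM in those of the control strain. It was 4.65-fold lower in the Δcra1 strain (-2.30 ± 0.29 on the log2 scale), with overexpression and control ranges that overlapped. *RIM13*, the protease that activates Rim101 at alkaline pH, *RUP1*, which regulates the ubiquitin ligase Rsp5, and *YHN8*, a putative G-protein coupled receptor, had Δcra1 ratios of 0.493, 0.314 and 0.378. The cytoskeleton and budding genes *BUD3* (axial bud-site selection) and *ASE1* (bundling of spindle midzone microtubules) had ratios of 0.356 and 0.444. In total 5 of 40 genes described as kinases are among the 64 (*URK1*, *RCK1*, *DAK2*, *CLA4* and *PKH1*), and of 31 kinases tested 14 were called lower and 8 higher with the deletion.

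Of the 8 lowest ratios, 2 belong to genes without a name. PP7435_Chr3-1233, with low similarity to membrane proteins and no counterpart in *S. cerevisiae*, had 71.9, 62.0 and 80.4 CPM in the Δcra1 libraries, against 314, 532 and 633 CPM in those of the overexpression strain and 489, 498 and 545 CPM in those of the control strain. It was 7.15-fold lower with the deletion (-2.91 ± 0.25 on the log2 scale), and overexpression replicate 1 was below and replicate 3 above the control range. PP7435_Chr3-1153, a hypothetical protein that is not conserved, had 177, 186 and 174 CPM with the deletion, 1104, 1815 and 1855 CPM with overexpression and 1097, 1032 and 1147 CPM in the control strain. The decrease was 6.09-fold (-2.70 ± 0.16 on the log2 scale), and overexpression replicates 2 and 3 were the highest of all libraries, at a mean ratio of 1.46, which exceeded 1.5 once the libraries were TMM-scaled. PP7435_Chr1-3336, of unknown function and similar to a WD repeat protein, had 565, 455 and 371 CPM in the Δcra1 libraries, against 861, 1536 and 1417 CPM in those of the overexpression strain and 1438, 2036 and 1852 CPM in those of the control strain. It was 3.83-fold lower in the Δcra1 strain, -2.04 ± 0.15 on the log2 scale.

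The other unnamed genes had Δcra1 to control ratios between 0.231 (PP7435_Chr4-0464, with a tricorn protease domain) and 0.497 (PP7435_Chr3-0809). Among them, PP7435_Chr1-1042 has low similarity to the actin-bundling protein fimbrin, PP7435_Chr4-0038 to a subunit of the mitochondrial MICOS complex, PP7435_Chr3-0834 to a kinetochore protein and PP7435_Chr3-1886 to a molybdenum cofactor protein. PP7435_Chr3-0337 and PP7435_Chr2-0765 resemble *S. cerevisiae* proteins found at mitochondria, and PP7435_Chr3-0308, PP7435_Chr2-0069, PP7435_Chr3-0932 and PP7435_Chr4-0009 are described as hypothetical or not well conserved. Over all genes without a name, the overexpression ratios reached from 0.705 for PP7435_Chr1-2577 to 1.46 for PP7435_Chr3-1153.

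PP7435_Chr1-2577, PP7435_Chr3-0987 and PP7435_Chr1-0811 have no description in the table. PP7435_Chr3-0987 had 16, 12 and 16 counts with the deletion, 63, 9 and 15 with overexpression and 15, 17 and 14 in the control strain. Overexpression replicate 1 exceeded every other library, and the overexpression to control ratio of 1.13 became 0.655 without it, which is outside the limits.

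At the edge of the limit of 0.5, PP7435_Chr1-0811 had 71.9, 67.2 and 49.1 CPM in the Δcra1 libraries, against 88.9, 192 and 144 CPM in those of the overexpression strain and 111, 119.8 and 150.5 CPM in those of the control strain. Its ratio was 0.494. PP7435_Chr3-0809, similar to a methionine-R-sulfoxide reductase, had 110.2, 134 and 147 CPM with the deletion, 182, 288 and 201 CPM with overexpression and 184, 341 and 263 CPM in the control strain. Just outside, *ADO1* (0.501), PP7435_Chr3-0931 (0.503) and *MSC7* (0.503) met every other condition. On the overexpression side, *YHN8* (0.698) and PP7435_Chr1-2577 (0.705) were the lowest inside, with *YHC3* (0.668) and PP7435_Chr4-0376 (0.664) outside. Without overexpression replicate 2 the ratio was 0.435 for *YHN8* and 0.510 for PP7435_Chr1-2577. *FAT1* (1.42) and PP7435_Chr3-1153 (1.46) were the highest inside, with *PRE8* and *FMP10* (1.51 each) outside. The limits thus divide genes with nearly equal ratios.

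Compared per length, as TPM (counts divided by effective length and scaled to the same total in each library), the median of the 64 genes was 55.6 TPM in the Δcra1 strain, 194 TPM in the overexpression strain and 197 TPM in the control strain, against 145 TPM in the Δcra1 strain, 147 TPM in the overexpression strain and 125 TPM in the control strain over all counted sequences. Their transcripts were therefore above the typical counted gene in the control strain and below it in the Δcra1 strain, which a filter on counts and a required decrease both shape. In the control strain, 6 genes exceeded 1000 TPM. *CDA2* had 1198 ± 152 TPM with the deletion, 2742 ± 1002 TPM with overexpression and 2408 ± 245 TPM in the control strain (mean ± SD, n = 3 each). The highest value belonged to PP7435_Chr1-2577, of only 165 coding bases, with 2559 ± 2226 TPM in the Δcra1 strain, 3463 ± 859.8 TPM in the overexpression strain and 4994 ± 2890.5 TPM in the control strain. Lowest in the control strain was PP7435_Chr1-0281 at 22.9 ± 6.10 TPM.

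Coding length and chromosome were compared with all counted sequences, which keep the loci that the list of exclusions took out of the 64. The median coding length was 1465.5 bases for the 64 genes and 1302 bases for the counted sequences. By chromosome, 22 of the 64 (34.4%) lie on chromosome 1, against 30.6% of counted sequences, 18 (28.1%) on chromosome 2, against 26.0%, 19 (29.7%) on chromosome 3, against 23.6%, and 5 (7.81%) on chromosome 4, against 19.6%. The share on chromosome 4 is the one furthest from that of all counted sequences, and the difference was not tested.

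Locus tags were taken to follow the order of genes on a chromosome, so genes with consecutive tags count as neighbours here. No pair of the 64 genes carries consecutive tags, a count that the exclusion of runs of neighbouring tags bears on. With TMM-scaled CPM, PP7435_Chr3-0931 and PP7435_Chr2-0547 also met the conditions, and they stand beside PP7435_Chr3-0932 and PP7435_Chr2-0548 of the 64. Beside a gene called lower in the Δcra1 strain stand 5 of the 64 (7.81%), against 7.33% of the 2386 tested genes on the chromosomes, and 8 (12.5%) beside one called higher, against 11.2%. The neighbours of 4 genes are among the glycolytic, fermentative and thiamine genes that the study names. No share of all genes beside such a gene was taken, and neighbours off that list are not described here. *URK1* stands beside *CDC19*, the pyruvate kinase gene, which had a ratio to control of 0.676 with the deletion and 5.82 with overexpression. PP7435_Chr3-1153 stands beside *ENO1*, the enolase gene, which had a ratio of 0.134 with the deletion and 5.65 with overexpression. *DAK2* stands beside *THI20*, a thiamine synthesis gene, at 0.256 with the deletion and 3.72 with overexpression. *MSI1* stands beside *PGI1*, the phosphoglucose isomerase gene, at 0.704 with the deletion and 5.43 with overexpression.

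**Figure D4:**
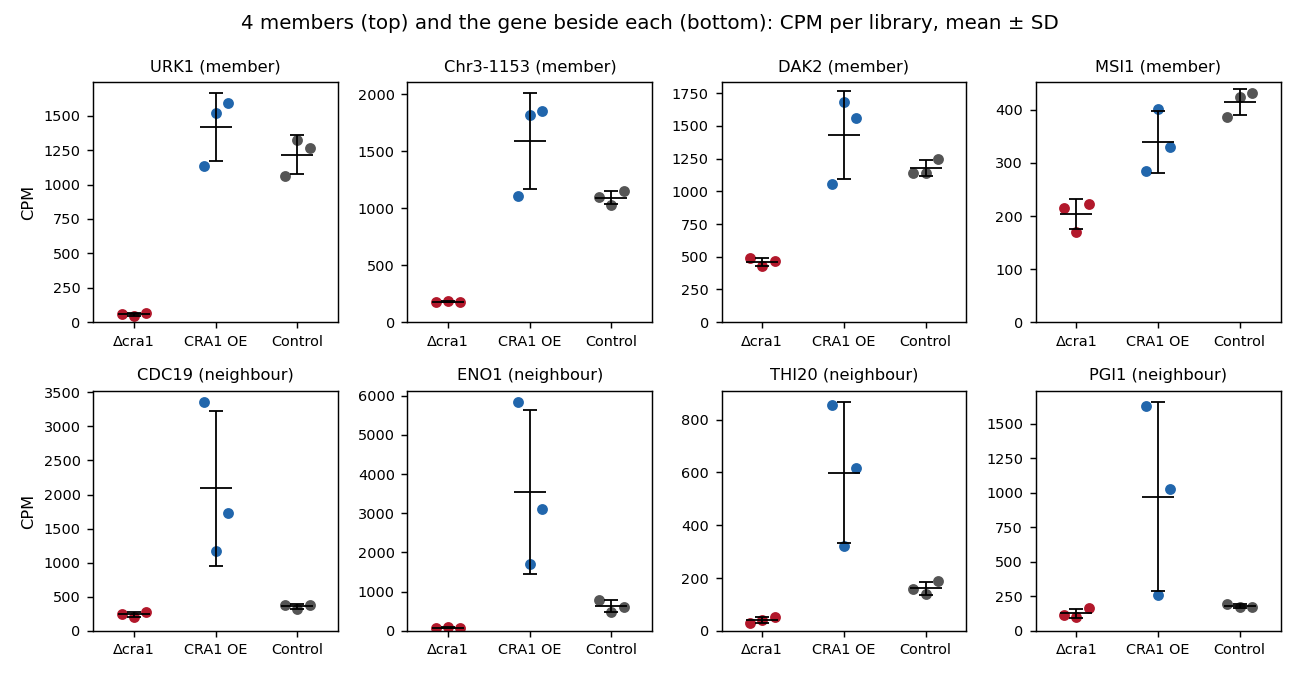
CPM per library of 4 of the genes (top) and of the gene with an adjacent locus tag (bottom), for the Δcra1, *CRA1* overexpression and control strains from left to right, with points for libraries and the mean ± SD of 3; each panel has its own axis from 0. The neighbours have overexpression to control ratios of 3.72 to 5.82, while those of the 4 genes themselves run from 0.818 to 1.46.

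In all 4 pairs the neighbour was highest in overexpression replicate 1, the library with the most *CRA1* counts, while each of the 4 genes of the list was lowest there among the overexpression libraries. That replicate was the lowest overexpression library in 76.6% of the 64 genes and in 51.0% of counted sequences. Being lowest there is therefore not particular to these 4 genes. The study does not state whether reads were counted by strand, so reads of overlapping or antisense transcripts cannot be told apart from those of the gene, and their part in these results was not tested.

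Within the overexpression strain, replicate 1 was the lowest library in 49 of the 64 genes (76.6%, against 51.0% of counted sequences) and the highest in 5 (7.81%, against 33.1%). Replicate 2 was the highest in 38 (59.4%, against 40.0%). With TMM scaling replicate 1 was still the lowest in 42 genes (65.6%, against 40.8%) and the highest in 11 (17.2%, against 38.4%). The library with 810 counts of *CRA1* thus had lower CPM for most of these genes than those with 95 and 316. These *CRA1* counts are not scaled for library totals, which were 213700, 114609 and 139067 in replicates 1, 2 and 3. Without replicate 1, 12 of the 64 genes no longer met the conditions, and without replicate 2, 11 did not. Some left by the count minimum with overexpression ratios still within the limits. Without replicate 1 these were *PER1* (0.814), *COG8* (0.972), *DAL3* (0.842) and PP7435_Chr1-0281 (1.35). Without replicate 2 this held for PP7435_Chr1-0811 (0.917). The 5 genes that were highest in replicate 1 are *LYS20*, *PKH1*, *CHS1*, PP7435_Chr1-0281 and PP7435_Chr3-0987.

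**Figure D5:**
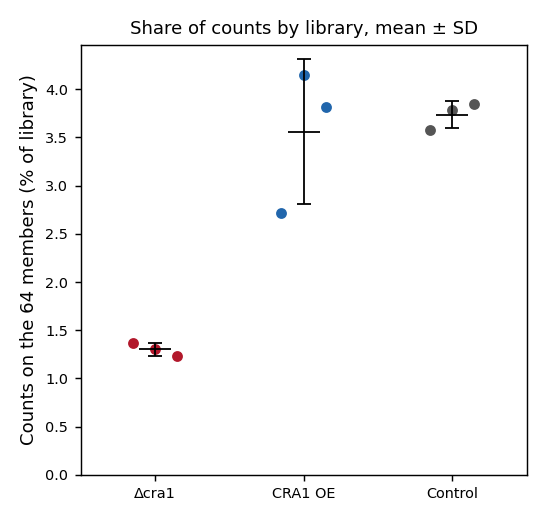
Percent of each library's estimated counts that fell on the 64 genes (points), with the mean (line) and SD (bars) of 3 libraries, for the Δcra1, *CRA1* overexpression and control strains from left to right. The Δcra1 libraries lie between 1.23 and 1.37%, and overexpression replicate 1, at 2.71%, is below the other overexpression libraries and the control libraries.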

How the data were processed

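Poly(A)-enriched RNA of 9 libraries was sequenced on a HiSeq v4 instrument; the authors trimmed the reads with Trim Galore 0.4.2 and quantified them against CBS7435 transcripts with kallisto, for which the sources used here give more than 1 version (0.44.0 in the submitters' notes). The deposited tables give, per sequence, estimated counts, which the authors did not normalize, and TPM, scaled by the authors for length and depth; at least 99.1% of the counts were whole (within 1e-06). The authors' DESeq2-normalized count tables were not used here. CPM was computed from library totals, and the genes were chosen as described above; the genes and lists were chosen with earlier results of these data known. Counts were rounded and each pair of strains was tested with edgeR 4.0.16 in R 4.3.3 (filterByExpr, TMM, quasi-likelihood test, Benjamini-Hochberg over all genes tested); DESeq2 1.42.0 was an alternative. The code was tested on simulated data. With 106345 to 223824 counts per library, these genes had a median of 26 counts per Δcra1 library and 43.8 per control library. Of the genes, 8 had a mean count under 20 in the control strain and met the count minimum through the overexpression strain. Values per library are given for the 8 genes highest in CPM in the control strain, the 8 with the lowest Δcra1 ratio, those of functional groups holding at least 2 of the genes, and the edge of the limits; all named genes are mentioned. Gene names and roles come from the study's annotation table. Genome coordinates and sequences were not used here. Whether counting used strand is not given in the sources used here.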

Additional observations from a re-analysis of the deposited data

How the results depend on the processing

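The number of genes meeting the conditions, 64, was 90 with TMM-scaled CPM (63 of the 64 among them), 55 with TPM (44 of the 64), 79 with a mean count of at least 10, 40 with at least 50, 32 at a ratio of at most 0.4, 99 at 0.6 and 37 with the overexpression limits narrowed to 0.8 and its reciprocal, which leaves out *POX1*, *VTC2* and *LCB3*; leaving out each library in turn gave 58 to 72. The number called lower in the Δcra1 strain than in the control strain, 64, was 63 with DESeq2, 61 with DESeq2 and length offsets, 19 with a mean of at least 50 counts, where 19 of the genes were tested, and 56 to 64 without each library in turn. Between the Δcra1 and overexpression strains the 46 called lower became 39 with DESeq2, 21 with a mean of at least 50 counts, where 24 were tested, and 33 to 54 without each library in turn. Between the overexpression and control strains 0 to 1 were called, and the 1, *YHN8*, was called lower in the overexpression strain without its replicate 2. The median log2 fold change of Δcra1 to control, -1.43, was -1.34 with library totals, -1.32 with at least 50 counts, -1.51 with DESeq2 and with DESeq2 and length offsets, and -1.55 to -1.41 without each library in turn. The cause of these shifts was not tested beyond the smaller number of genes or libraries. Replicate numbers did not pair the libraries over all strains. Over 1313 genes, the correlations of same-numbered libraries ran from -0.48 to 0.32, and those of differently numbered ones from -0.37 to 0.48. Between the overexpression and control strains, same-numbered libraries had correlations of 0.09 to 0.32 and the others -0.29 to 0.01. With the replicate number as a block, 64 genes were called lower in the Δcra1 strain than in the control strain and 40 lower than in the overexpression strain. Of 454 values of 34 single genes under these alternatives, 439 kept their direction and side of the threshold, 15 in 10 genes lost the call and 0 changed direction. The genes were chosen for their decrease in these same libraries, so the kept direction is no test of it.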

Other observations

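With TMM-scaled CPM, 27 further genes met the same conditions. They include the condensin subunit gene *BRN1*, the ribosomal protein genes *RPL8B* and *RPS26B*, the prefoldin gene *PFD1*, the adenosine kinase gene *ADO1* and the phosphatidylserine decarboxylase gene *PSD2*. These names were chosen after the values were seen. With library totals, *BRN1* had a Δcra1 to control ratio of 0.405 and an overexpression to control ratio of 0.636, just under the lower limit.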
